A study of Mus musculus with 2 samples.

Results

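The transmitter that a neuron releases can be read from a small set of genes, and 9 of them were taken here by gene symbol from the 31252 gene rows of the count matrix. They were Slc17a6, Slc17a7 and Slc17a8 for glutamate, Gad1, Gad2 and Slc32a1 for GABA, Slc6a5 for glycine, and Chat and Slc5a7 for acetylcholine. All 9 had a row in the matrix. The study switched on COUP-TFII, a nuclear receptor encoded by Nr2f2, in dopaminergic neurons of the mouse and sequenced RNA from ventral midbrain tissue. The matrix holds 2 libraries from 2-month-old mice of a strain given as incipient congenic C57BL/6, the one labelled Ctrl and the other labelled OE. Both genotypes carry Cre inserted at the dopamine transporter gene Slc6a3, and OE mice also carry the CAG-S-COUP-TFII allele at ROSA26, from which Cre turns on COUP-TFII in cells that use Slc6a3. In the breeding scheme of the study, Ctrl and OE littermates also have a tdTomato reporter at the other ROSA26 allele and 1 floxed copy of Tfam, but the labels do not say whether the animals sequenced came from that cross. How many animals went into a library is not given in the sources used here.

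A glutamatergic neuron fills its vesicles through a vesicular glutamate transporter, and which of the 3 it uses depends largely on its region. A GABAergic neuron makes GABA from glutamate with the decarboxylases encoded by Gad1 and Gad2 and packs it through the vesicular transporter encoded by Slc32a1, which also carries glycine. Glycinergic neurons take glycine back with the transporter encoded by Slc6a5, and cholinergic neurons take up choline through Slc5a7 and acetylate it with Chat. The ventral midbrain holds GABAergic and glutamatergic neurons beside its dopaminergic neurons, and some of the dopaminergic neurons themselves carry Slc17a6.

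The labels name the cell type as dopaminergic neurons, but the material was whole tissue. Mbp, a myelin gene of oligodendrocytes, had 128974 and 139810 counts in the libraries labelled Ctrl and OE, and Aqp4, a water channel of astrocytes, had 6623 and 7079. In bulk RNA of this kind, fewer cells of a type and less RNA per cell cannot be told apart. The expected counts summed to 16984336 in the Ctrl-labelled library and 21326632 in the OE-labelled library. Nr2f2 goes against the labels, with 637 counts in the Ctrl-labelled library and 377 in the OE-labelled library, a log2 fold change of -1.07 (95% counting interval -1.26 to -0.88). The study measured the higher COUP-TFII mRNA of OE mice in isolated dopaminergic neurons, whereas this value is of whole tissue. Every direction below follows the labels, as OE-labelled over Ctrl-labelled, and would turn round if the labels were exchanged. The libraries also differed in markers of region and cell type. All 12 markers of dopaminergic neurons were higher in the OE-labelled library and all 12 markers of thalamus were lower. The values of these markers are given below beside the transmitter genes.

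There is 1 library per group and so no replicate error and no test. The log2 fold change was taken on counts scaled by TMM, with 0.5 normalized counts added, for the 15246 genes whose mean reached 10 counts. The intervals are exact 95% Clopper-Pearson intervals on how the counts of a gene split between the libraries. They cover counting error only and compare these libraries, not the genotypes. A difference of more than 0.2 on the log2 scale, the threshold in the methods of the study, is called past 0.2. Of all tested genes, 17.9% were higher and 16.6% lower past 0.2, which is the background for the counts of each list.

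COUP-TFII binds as a dimer to repeats of the nuclear receptor half-site AGGTCA. The windows of 250 bases that precede the transcription start of Slc17a6, Slc17a7, Chat and Slc5a7 are shown because, among the genes with at least 10 counts on average, they have the largest differences or the highest glutamate level, and that of Slc18a3 because it lies inside Chat. The sequences are from RefSeq on GRCm38.p6, 5′ to 3′ on the strand of the gene. Capitals mark GGTCA, which is the half-site without its first letter, or its reverse complement TGACC. The window of Slc17a6 is chr7:51621580-51621829 on the plus strand, that of Slc17a7 is chr7:45163671-45163920 on the plus strand, that of Chat is chr14:32465910-32466159 on the minus strand, that of Slc18a3 is chr14:32464851-32465100 on the minus strand and that of Slc5a7 is chr17:54299035-54299284 on the minus strand.
Slc17a6: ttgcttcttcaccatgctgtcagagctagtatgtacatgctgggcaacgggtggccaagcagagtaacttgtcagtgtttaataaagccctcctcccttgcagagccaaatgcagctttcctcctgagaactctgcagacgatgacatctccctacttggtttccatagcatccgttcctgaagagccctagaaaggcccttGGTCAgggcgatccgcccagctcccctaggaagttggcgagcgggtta
Slc17a7: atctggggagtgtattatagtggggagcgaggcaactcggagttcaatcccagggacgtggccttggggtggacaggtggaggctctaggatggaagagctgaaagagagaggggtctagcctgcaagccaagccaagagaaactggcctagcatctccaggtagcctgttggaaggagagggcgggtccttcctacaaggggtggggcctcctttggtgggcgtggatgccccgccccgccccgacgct
Chat: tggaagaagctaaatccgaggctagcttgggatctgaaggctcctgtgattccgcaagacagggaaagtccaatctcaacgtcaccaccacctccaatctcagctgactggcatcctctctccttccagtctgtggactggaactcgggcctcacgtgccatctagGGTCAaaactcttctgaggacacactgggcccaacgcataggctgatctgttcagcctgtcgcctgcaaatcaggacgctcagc
Slc18a3: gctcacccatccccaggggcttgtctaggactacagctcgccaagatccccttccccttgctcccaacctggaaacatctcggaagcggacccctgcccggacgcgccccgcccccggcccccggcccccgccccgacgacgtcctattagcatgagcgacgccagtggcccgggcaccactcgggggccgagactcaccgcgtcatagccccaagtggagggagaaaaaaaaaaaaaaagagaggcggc
Slc5a7: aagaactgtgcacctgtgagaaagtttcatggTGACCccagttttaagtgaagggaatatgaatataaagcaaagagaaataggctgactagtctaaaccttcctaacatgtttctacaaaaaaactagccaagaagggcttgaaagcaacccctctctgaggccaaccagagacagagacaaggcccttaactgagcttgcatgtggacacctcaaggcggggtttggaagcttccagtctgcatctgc

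All 9 genes matched a RefSeq window, and 3 of them had a second start, which made 12 windows. AGGTCA or its reverse TGACCT was in 0 of the 12, against 14.0% of 32851 windows of the same length before all starts. The shorter GGTCA or TGACC, which lies inside the longer motif, was in 4 of the 12, those of Chat, Gad2, Slc5a7 and the upstream start of Slc17a6, against 35.2% of all windows. The letters thus occurred before genes that were higher (Chat and Slc5a7) and before genes that were lower (Slc17a6). A match of this length is a description of the window and not a binding site, and no match says only that these letters are not in these bases. The window of Slc18a3 was 66.0% G and C with 21 CG pairs, and that of Slc5a7 held 1 CG pair.

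Levels of different genes were compared as RPKM, the count divided by the length of the longest transcript and by the library total. In both libraries the GABA genes and the glutamate gene Slc17a6 stood far above the others. Gad1 was highest, at an RPKM of 131 in the Ctrl-labelled library and 120 in the OE-labelled library. Slc17a6 followed at 90.2 and 76.2, then Gad2 at 73.4 and 69.4, and Slc32a1 at 39.1 and 47.3. The exact Poisson intervals of these 4 genes did not overlap within a library. The other 5 genes were at or under an RPKM of 4.42. In the Ctrl-labelled library they ran from Slc17a7 at 4.42 through Slc5a7 at 0.614, Slc17a8 at 0.436 and Chat at 0.206 to Slc6a5 at 0.0333. Slc5a7 and Slc17a8 did not differ beyond counting error there (intervals 0.461 to 0.801 and 0.30 to 0.612), and neither did Slc17a8 and Chat (0.0988 to 0.379). In the OE-labelled library the order was Slc5a7 at 1.12, Slc17a7 at 0.761, Chat at 0.640, Slc17a8 at 0.400 and Slc6a5 at 0.0796, and neighbours among the first 4 overlapped. Slc17a7 therefore stood above Slc5a7 in the Ctrl-labelled library and below it in the OE-labelled library, where the intervals (0.565 to 1.0 and 0.934 to 1.34) met at their ends. With the median transcript length in place of the longest, 6 of the 9 genes kept their rank within each library. Chat then stood above Slc5a7 and Slc17a8 in both, at 0.894 in the Ctrl-labelled library and 2.78 in the OE-labelled library, where it also stood above Slc17a7.

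**Figure D1:**
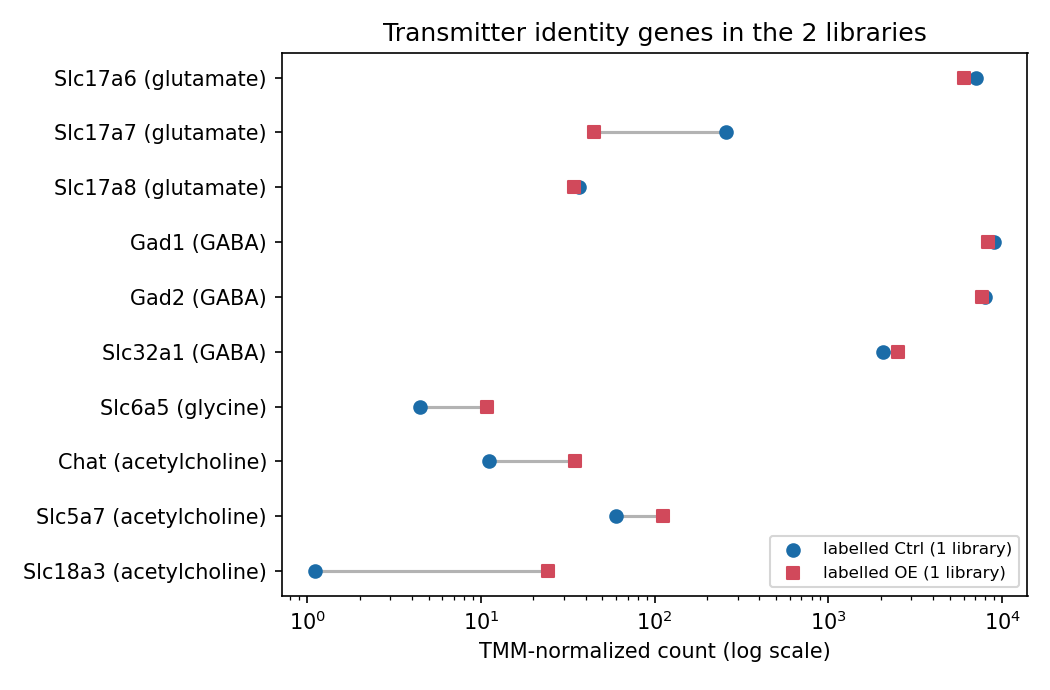
TMM-normalized counts (log scale) of the 9 transmitter genes and of Slc18a3 in the Ctrl-labelled library and the OE-labelled library, 1 point per library, joined by a grey line for each gene. Slc17a6, Gad1, Gad2 and Slc32a1 lie at the right in both libraries, from 2071 normalized counts up, and Slc17a7 (257 against 44.9) and Slc18a3 (1.11 against 24.2) show the widest gaps.

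Of the 9 genes, 8 reached the mean of 10 counts, and Slc6a5 did not. Past 0.2, 3 of the 8 were higher in the OE-labelled library, namely Slc32a1, Chat and Slc5a7, where 17.9% of all tested genes were. The 2 that were lower, Slc17a6 and Slc17a7, stand against 16.6% of all tested genes. The counting interval lay above 0 for the same 3 genes, against 15.8% of tested genes, and below 0 for 4, which were Slc17a6, Slc17a7, Gad1 and Gad2, against 14.4%. Past a log2 fold change of 1, Chat was higher and Slc17a7 lower, where 1.53% and 1.28% of tested genes were. The median of the 8 was -0.087, beside 0.0046 for all tested genes.

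**Figure D2:**
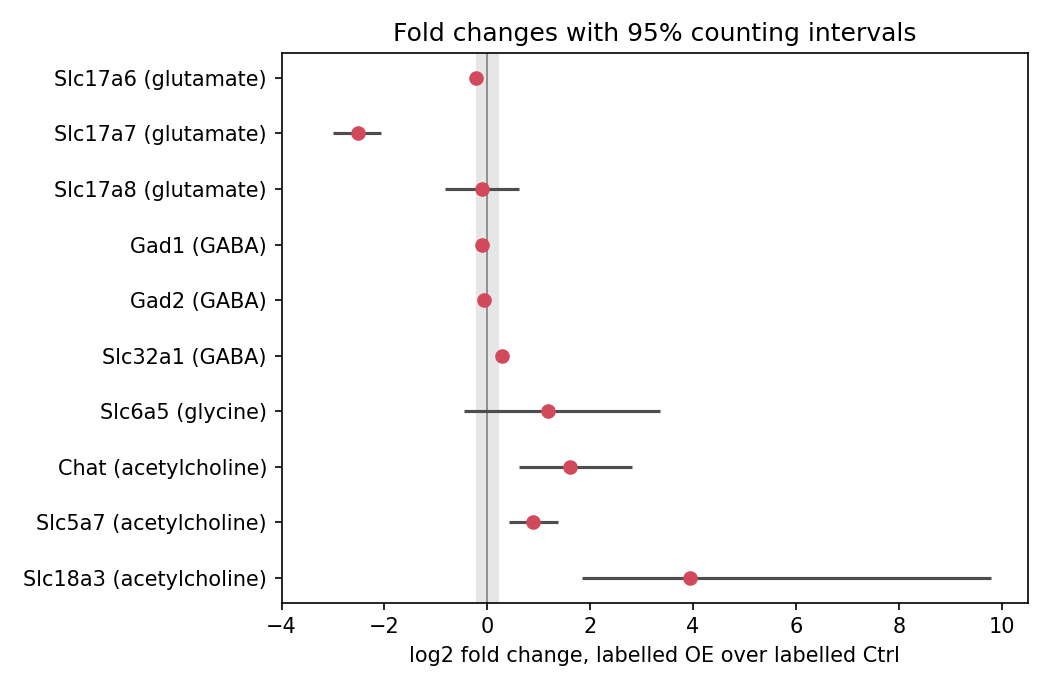
Log2 fold change (OE-labelled over Ctrl-labelled library) of the 9 transmitter genes and Slc18a3, with 95% counting intervals as bars and the band within 0.2 in grey. Slc17a7 lies at -2.51, Chat at 1.61 and Slc5a7 at 0.88, and the intervals of Slc17a8 and Slc6a5 cross 0.

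Among the glutamate genes, the vesicular transporter of cortical and many other forebrain neurons differed most. Slc17a7 (chr7:45163949-45176142, plus strand, with all gene positions on GRCm38) had 231 counts in the Ctrl-labelled library and 50 in the OE-labelled library. After scaling these were 257 and 44.9 normalized counts, a 5.69-fold higher level in the Ctrl-labelled library once 0.5 was added to each. The log2 fold change was -2.51 (interval -2.99 to -2.07), and 0.164% of tested genes lay lower. Slc17a6 (chr7:51622006-51671119, plus strand), the transporter of thalamic, midbrain and other subcortical glutamatergic neurons, had 6340 and 6727 counts, or 7067 and 6035 when normalized. It was lower in the OE-labelled library by a small amount, -0.23 (interval -0.28 to -0.18), and 14.4% of tested genes lay lower still. Slc17a8 (chr10:89574020-89621253, minus strand), which many neurons that also release another transmitter use, had 33 and 38 counts, which gave a log2 fold change of -0.11 (interval -0.82 to 0.61). No difference was detectable in Slc17a8 at this depth.

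Within the 3 vesicular glutamate transporters, shares of counts do not depend on how the libraries are scaled to each other. Slc17a6 made up 96.0% of their counts in the Ctrl-labelled library (exact interval 95.5 to 96.5) and 98.7% in the OE-labelled library (98.4 to 99.0). Slc17a7 made up 3.50% (3.07 to 3.97) and 0.734% (0.545 to 0.966). The log2 change of its odds was -2.29 (interval -2.77 to -1.84), so Slc17a7 differed by more than the other transporters beyond counting error. Slc17a8 held 0.50% and 0.558%, with overlapping intervals.

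Markers of thalamus, and the abundant ones of cortex and hippocampus, were lower in the same library as Slc17a7. All 12 thalamic markers were lower past 0.2 in the OE-labelled library, where 16.6% of all tested genes were. Their median was -1.48 (log2 fold change), and their summed normalized counts were 18229 and 9206. Adarb1, an RNA-editing enzyme, went from 6175 to 4873 normalized counts, and Ntng1, an adhesion molecule of thalamic axons, from 2145 to 1439. Tcf7l2, a transcription factor that marks thalamus in the adult brain, had 2204 and 398 counts. Markers of glutamatergic neurons of cortex and hippocampus summed to 6334 and 3762 normalized counts, of which Camk2a, a kinase of excitatory synapses, and Nrgn, a postsynaptic calmodulin-binding protein, made up the greater part. These 2 were lower in the OE-labelled library, by -0.83 and -0.58. The rarer transcription factors of those neurons had few counts, and after scaling Neurod2 was slightly lower in the OE-labelled library (-0.11) while Neurod6 was higher (0.90): Neurod6 had 58 and 135 counts, Neurod2 had 27 and 31, Tbr1 had 4 and 14, Fezf2 had 3 and 4 and Emx1 had 1 and 2. The part of these tissues in the values of Slc17a7 and Slc17a6 was not tested.

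**Figure D3:**
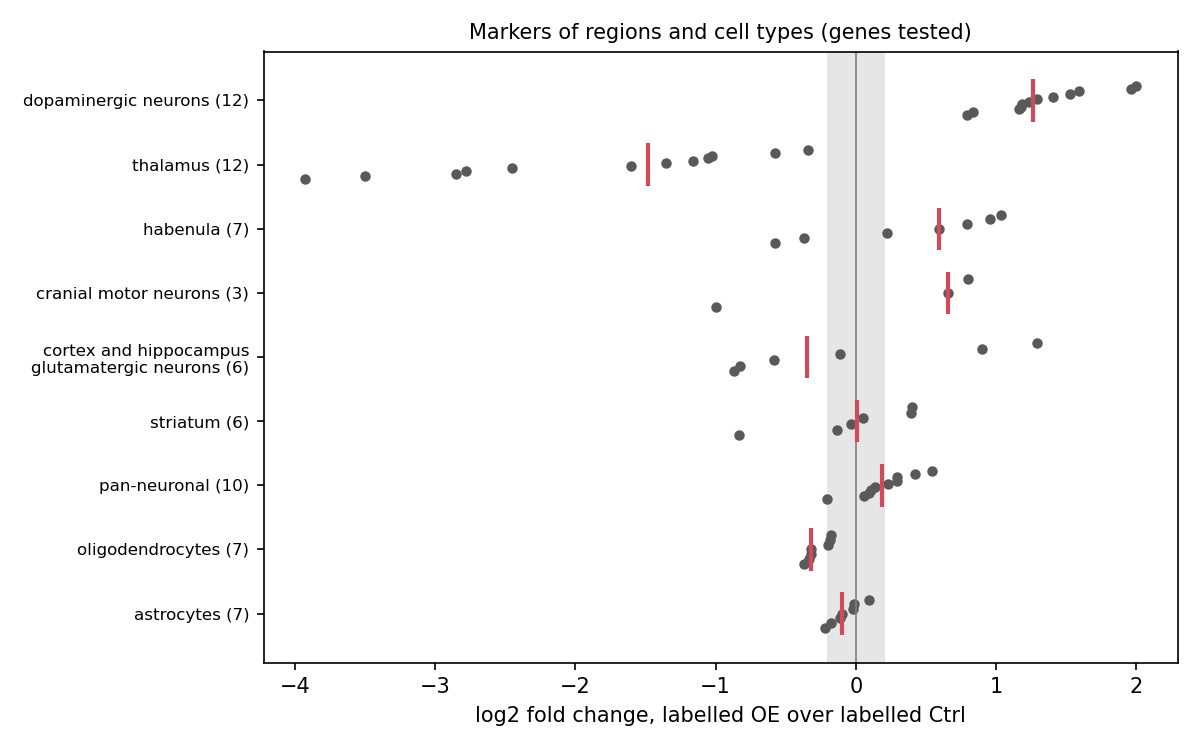
Log2 fold change (OE-labelled over Ctrl-labelled library) of the tested marker genes of 9 regions or cell types, 1 point per gene, with the median of each list as a red line and the band within 0.2 in grey. The 12 thalamic markers all lie below -0.2 and the 12 dopaminergic markers all above 0.2, with medians of -1.48 and 1.26.

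The genes that make, recycle and clear glutamate were close to level. Of 13 tested, 1 was higher and 2 were lower past 0.2, beside 17.9% and 16.6% of all tested genes. The median of the list was -0.014. Slc38a1, a neuronal glutamine transporter, was highest at 0.24 (interval 0.19 to 0.28). Slc1a6, a glutamate uptake carrier best known from cerebellar Purkinje cells, was lowest among genes averaging at least 100 counts, at -0.29 (interval -0.54 to -0.038). Slc38a5, a glutamine transporter with 57 and 27 counts, stood at -1.37 (interval -2.11 to -0.71). Slc1a2, the main glutamate carrier of astrocytes, was lower by less, -0.17 (interval -0.20 to -0.15).

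Of the GABA genes, both decarboxylases were marginally lower in the OE-labelled library and the vesicular transporter was higher. Gad1 (chr2:70553072-70602014, plus strand) had 8018 and 9232 counts, which are 8937 and 8282 after scaling. Its log2 fold change was -0.11 (interval -0.15 to -0.066). Gad2 (chr2:22622205-22693874, plus strand) had 7159 and 8503 counts and a value of -0.065 (interval -0.11 to -0.019). Neither was past 0.2. Slc32a1 (chr2:158610767-158615748, plus strand), a short gene of 2 exons, had 1858 and 2821 counts, or 2071 and 2531 normalized, a log2 fold change of 0.29 (interval 0.20 to 0.37), and 88.2% of tested genes lay lower. Gad1os, an antisense gene of Gad1, had 4 and 8 counts. These are counts after assignment, so they cannot show whether antisense reads were counted in Gad1.

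The decarboxylases stood in nearly the same proportion to each other in both libraries, and the transporter took a larger share in the OE-labelled library. Gad1 made up 52.8% of the counts of Gad1 and Gad2 in the Ctrl-labelled library (interval 52.0 to 53.6) and 52.1% in the OE-labelled library (51.3 to 52.8). The log2 change of that odds was -0.045 (interval -0.11 to 0.018). Slc32a1 made up 10.9% of the counts of the GABA genes in the Ctrl-labelled library (10.4 to 11.4) and 13.7% in the OE-labelled library (13.3 to 14.2), a log2 change of 0.38 (interval 0.29 to 0.47). Set against Slc32a1, the main glutamate transporter Slc17a6 held 77.3% of the counts of the pair in the Ctrl-labelled library (76.4 to 78.2) and 70.5% in the OE-labelled library (69.5 to 71.4), a log2 change of -0.52 (interval -0.62 to -0.42).

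**Figure D4:**
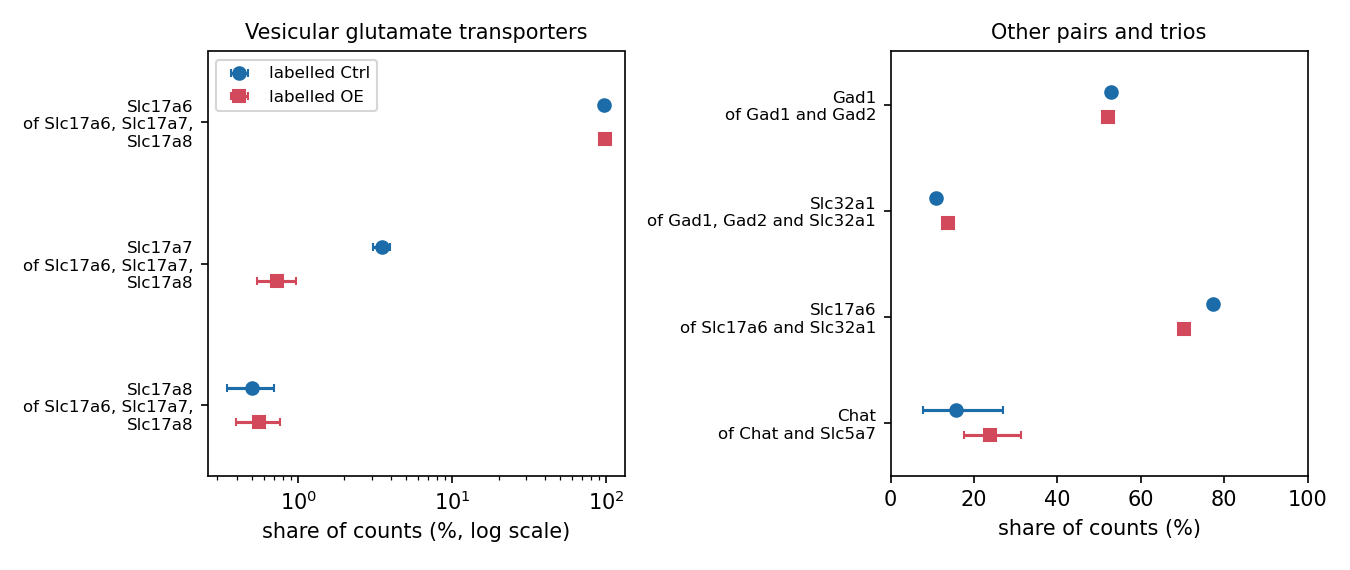
Share of counts (percent) that a gene takes of a pair or group of transmitter genes within each library, with exact 95% binomial intervals as bars; the left panel has a log axis and the right panel a linear axis. Slc17a7 goes from 3.50% to 0.734% of the vesicular glutamate transporters, while Gad1 stays near 52% of Gad1 and Gad2.

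Of 10 pan-neuronal markers, 5 were higher in the OE-labelled library and 1 was lower past 0.2, beside 17.9% and 16.6% of all tested genes. Their median log2 fold change was 0.19. The most abundant, Snap25 and Syp, which encode proteins of the synapse, stood at 0.055 and 0.11. The 12 markers of dopaminergic neurons had a median of 1.26, and their summed normalized counts were 23778 and 55291. Slc6a3, the dopamine transporter, had 4955 and 15033 counts, and Aldh1a1, an enzyme of a ventral group of these neurons, had 6649 and 14705. Relative to the pan-neuronal markers, Slc32a1 was within 0.2 (0.10) and both decarboxylases were lower past 0.2 (-0.30 for Gad1 and -0.25 for Gad2). On that scale, 8.03% of all tested genes were higher and 45.7% lower past 0.2, and the median of all tested genes was -0.18. The part of these cells in the GABA values was not tested.

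Among GABA uptake carriers, breakdown enzymes and GABA-B receptor genes, 9 of 10 were tested. Past 0.2, 0 of the 9 were higher and 3 were lower, beside 17.9% and 16.6% of all tested genes, and the median was -0.064. Aldh5a1, which oxidises the product of GABA breakdown, was highest at 0.14 (interval 0.076 to 0.21), and Abat, the GABA transaminase, stood at 0.092. The astrocytic carrier Slc6a11 was at -0.064. Kctd12, an auxiliary subunit of GABA-B receptors, was lowest among genes averaging at least 100 counts, at -0.40 (interval -0.51 to -0.28). Slc6a13, a carrier found mainly in the meninges, had 97 and 61 counts and stood at -0.98 (interval -1.47 to -0.51).

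Most transcription factors of GABAergic neurons were within 0.2. Of 15, 11 were tested, with a median of 0.093. Past 0.2, 2 of the 11 were higher and 0 lower, beside 17.9% and 16.6% of all tested genes. Lhx5 had 81 and 160 counts, which gave a log2 fold change of 0.67 (interval 0.27 to 1.07). Sox14, which marks a group of midbrain and diencephalic GABAergic neurons, had 26 and 59 counts and a value of 0.86 (interval 0.18 to 1.59). The midbrain selector Gata3 stood at 0.093 and Tal1 at -0.18, and both intervals held 0. Tal2, Dlx2, Dlx5 and Dlx6 had between 2 and 7 counts in each library.

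Peptides and calcium-binding proteins that divide GABAergic neurons into classes went both ways. Of 12, 3 were higher and 3 lower past 0.2, beside 17.9% and 16.6% of all tested genes. Penk, the precursor of enkephalins, stood at 0.39 (interval 0.26 to 0.52), Pvalb, parvalbumin, at 0.34 (interval 0.24 to 0.44) and Nos1, the neuronal nitric oxide synthase, at 0.29 (interval 0.073 to 0.52). Sst, somatostatin, stood at -0.32 (interval -0.49 to -0.15) and Reln, reelin, at -0.34 (interval -0.48 to -0.19). Pdyn, the precursor of dynorphins, had 129 and 54 counts and was lowest at -1.56 (interval -2.06 to -1.10). Values of either sign thus stood beside the higher Slc32a1.

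The glycine carrier of glycinergic neurons was barely detected. Slc6a5 (chr7:49910146-49963856, plus strand) had 4 counts in the Ctrl-labelled library and 12 in the OE-labelled library, which are 4.46 and 10.8 normalized counts. The ratio of 2.41 had a counting interval from 0.732 to 10.3, so no difference was detectable at this depth. The 14 Hox genes that mark hindbrain had at most 1 count in either library, and 12 of them had 0 in both. Slc6a9, the glial glycine carrier, had 3012 and 3485 counts and stood at -0.10 (interval -0.17 to -0.032).

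Receptors and metabolism of glycine were near level too. Of 13 genes, 12 were tested, with a median of -0.027. Past 0.2, 1 was higher and 2 were lower, beside 17.9% and 16.6% of all tested genes. Glrb, the receptor subunit that binds gephyrin, was at 0.10 (interval 0.052 to 0.16), and Glra1, the subunit best known from spinal cord, at 0.011 on 107 and 134 counts. Glra3 was lowest at -0.44 (interval -0.82 to -0.069). Among genes averaging at least 100 counts, Gcsh, a protein of the glycine cleavage system, was highest, at 0.11 (interval -0.0068 to 0.23).

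Both cholinergic members were low in number and higher in the OE-labelled library. Chat (chr14:32408203-32465989, minus strand), which makes acetylcholine, had 10 counts in the Ctrl-labelled library and 39 in the OE-labelled library, or 11.1 and 35.0 normalized. Its log2 fold change was 1.61 (interval 0.62 to 2.82), and 99.5% of tested genes lay lower. Slc5a7 (chr17:54273590-54299034, minus strand), the choline carrier that limits the rate of synthesis, had 54 and 124 counts, or 60.2 and 111 normalized. It stood at 0.88 (interval 0.41 to 1.37), with 98.1% of tested genes lower. The share of Chat in the counts of the pair was 15.6% (interval 7.76 to 26.9) and 23.9% (17.6 to 31.2), and these intervals overlap.

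The vesicular transporter of acetylcholine, Slc18a3, went the same way. It is a gene of 1 exon at chr14:32462438-32464850 on the minus strand, and it lies whole inside intron 1 of 4 of the 8 annotated transcripts of Chat, sharing 0 exon bases with them. It had 1 count in the Ctrl-labelled library and 27 in the OE-labelled library. The ratio of normalized counts was 21.7, with a counting interval from 3.58 to 889.7, and the log2 fold change with 0.5 normalized counts added was 3.94. Both rest on 1 count in the Ctrl-labelled library. How reads of intron 1 of Chat were assigned is not given in the sources used here.

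The wider cholinergic list had 12 tested genes, of which 6 were higher and 2 lower past 0.2, with a median of 0.18. Of all tested genes, 17.9% were higher and 16.6% lower past 0.2. Counting intervals lay above 0 for 3 and below 0 for 3, beside 15.8% and 14.4% of all tested genes. Among the 6 higher genes, the intervals of Colq, Chrm4 and Chrm5 held 0. Ache, acetylcholinesterase, had 2981 and 4849 counts, which gave a log2 fold change of 0.39 (interval 0.32 to 0.45). Prima1, which anchors acetylcholinesterase to the membrane, had 103 and 207 counts and was highest among genes averaging at least 100 counts, at 0.69 (interval 0.35 to 1.05). Bche, butyrylcholinesterase, was lowest at -0.82 (interval -1.10 to -0.54). Slc44a1, a choline carrier of many cell types, stood at -0.14 (interval -0.21 to -0.064). Of the muscarinic receptors, Chrm1 was at -0.42 (interval -0.80 to -0.045), while Chrm5, which dopaminergic neurons carry, was at 0.34 with an interval from -0.027 to 0.72.

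**Figure D5:**
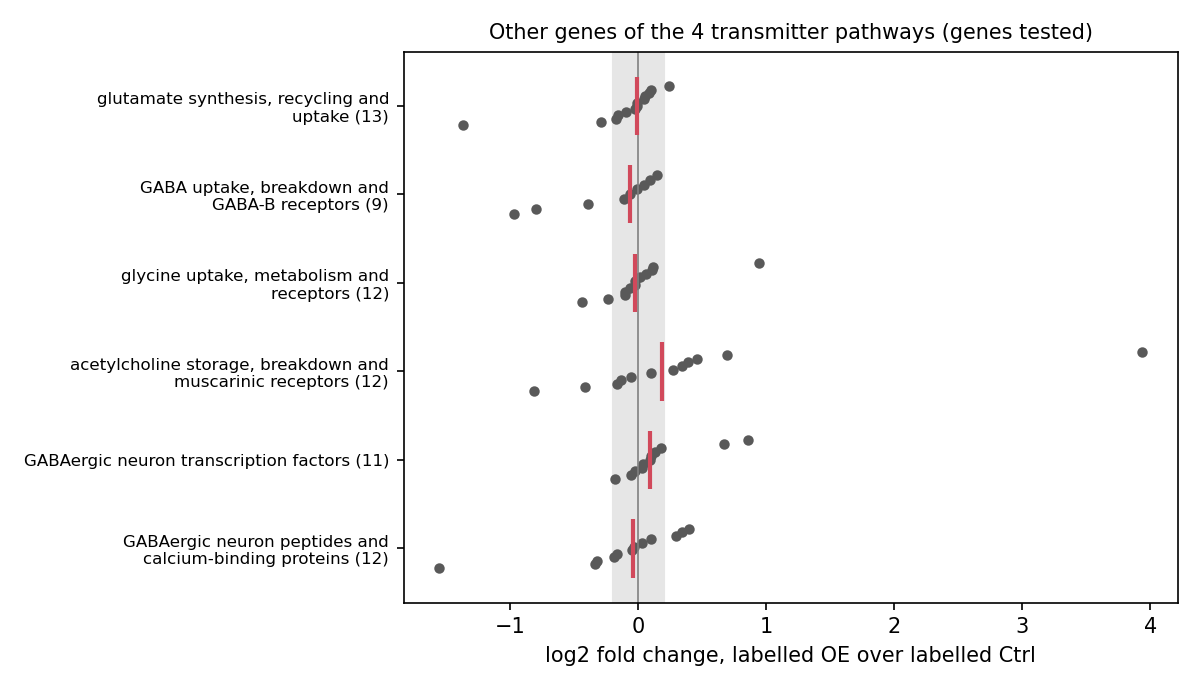
Log2 fold change (OE-labelled over Ctrl-labelled library) of the tested genes of 6 pathway lists, 1 point per gene, with each list's median as a red line and the band within 0.2 in grey. The cholinergic list runs from Bche at -0.82 to Slc18a3 at 3.94 around a median of 0.18, and the glutamate list has a median of -0.014.

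Cholinergic cells are found in several places, among them the habenula and the cranial motor neurons. Of the habenula markers, 7 were tested, and 5 were higher and 2 lower past 0.2, beside 17.9% and 16.6% of all tested genes. Their median was 0.59, and the summed normalized counts of the list were 396 and 602. The counting interval lay above 0 for 4 of the 7 and held 0 for the others, among them Gpr151 at -0.57 and Wif1 at -0.37. Chrna3, a nicotinic receptor subunit, had 132 and 284 counts, and Pou4f1, a transcription factor, had 89 and 167. Among 6 markers of cranial motor neurons, 3 were tested, of which 2 were higher and 1 was lower past 0.2, with a median of 0.65. These stand beside 17.9% and 16.6% of all tested genes. The sums were 198 and 178 normalized counts, of which Calca held 135 and 67.3. Isl1 had 7 and 14 counts and was at 0.65 (interval -0.72 to 2.24). Calca, a neuropeptide gene, was at -1.0 and Prph, an intermediate filament, at 0.80. Phox2a, a transcription factor that defines some of those motor neurons, had 0 counts in both libraries. The part of habenular or motor neurons in the values of Chat, Slc5a7 and Slc18a3 was not tested.

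Across the 6 pathway lists, 69 of 75 genes were tested, of which 13 were higher and 12 lower past 0.2. These are 18.8% and 17.4% of the genes tested, close to the 17.9% and 16.6% of all tested genes.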

How the data were processed

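Ventral midbrain RNA was prepared with the Illumina TruSeq Stranded mRNA kit and read from both ends over 50 bp in 2 libraries. The authors deposited expected counts per gene from RSEM, estimated by the pipeline of the sequencing company and not normalized. Of these values 95.4% were whole. The build mm10 comes from the submitters' processing notes. The gene annotation, the aligner and the strand setting are not given in the sources used here.

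Columns were mapped to the labels Ctrl and OE. Counts were scaled by TMM (edgeR 4.0.16, R 4.3.3; factors 1.01 and 0.995), with 0.5 normalized counts added before log2. Exact Clopper-Pearson, Poisson and conditional odds-ratio intervals (scipy 1.17.1, on counts rounded to whole numbers) cover counting error only. RPKM was computed here from the counts, the longest transcript and the library total. No test across genes was run. The scripts were tested on simulated data. Gene positions and transcript lengths are from GENCODE M21 on GRCm38, and promoter windows from RefSeq on GRCm38.p6.

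Scaling (total counts, upper quartile, DESeq2 1.42.0 size factors, pan-neuronal markers), the added 0.5, the count minimum, the threshold and the transcript length were varied. The transmitter genes, the 6 pathway lists and the marker lists were chosen with earlier results of these data known, so no list is independent evidence. Named were Nr2f2, the 9 genes, in each pathway list the highest and lowest with a mean of at least 100 counts, genes whose interval excludes 0 or with at most 3 counts, the 2 most abundant markers of a list, and the 2 genes nearest in log2 fold change to the most abundant gene of each transmitter. Slc18a3 as a gene inside Chat, Gad1os, Tcf7l2, the rarer markers of cortex and motor neurons and list genes with a role beside these were chosen after their values were seen. Some genes that this rule names are not reported here.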

Additional observations from a re-analysis of the deposited data

How the results depend on the processing

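No paired analysis was possible because there is 1 library for each label. Of 87 recomputed values, 74 moved by less than their counting interval or, for counts of genes, by no more than 1.5 times, 13 moved further and 0 changed sign. Scaling to the pan-neuronal markers moved the median of all genes to -0.18, with 8.03% of them higher and 45.7% lower past 0.2. It gave -0.41 for Slc17a6, -0.30 for Gad1, -0.25 for Gad2 and 0.10 for Slc32a1, with 5 transmitter genes lower past 0.2, and 8 higher and 33 lower in the pathway lists. A mean of at least 100 counts left 1 transmitter gene and 8 pathway genes higher. A threshold of log2 1 left 1 transmitter gene higher and 1 lower, and 1 pathway gene higher and 2 lower. Over all scalings and the larger pseudocount of 5, Slc17a7 ran from -2.69 to -2.40, Chat from 1.31 to 1.62 and Slc5a7 from 0.70 to 0.89. Nr2f2 ran from -1.25 to -1.06, against the labels throughout. Depth limits Slc6a5, Slc17a8, Chat and Slc18a3, each with under 40 counts in both libraries.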

Other observations

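Markers of striatum, whose neurons send GABAergic axons to the ventral midbrain, did not move as a group. Of 6 tested, 2 were higher and 1 was lower past 0.2, beside 17.9% and 16.6% of all tested genes. The median log2 fold change was 0.0084. Penk, also a gene of the peptide list, was at 0.39, and Rgs9, a regulator of G-protein signalling, was at 0.053. Of 7 oligodendrocyte markers, 0 were higher and 4 were lower past 0.2, beside the same 17.9% and 16.6%. Their median was -0.32, and Mbp, a main myelin gene, stood at -0.20. Of 7 astrocyte markers, 0 were higher and 1 was lower past 0.2, again beside 17.9% and 16.6%, with a median of -0.096.

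Among 11735 genes averaging at least 100 counts, the log2 fold changes nearest to that of Slc17a6 were those of Jph1 and Arpp21. Nearest to Gad1 were Rbm5 and Znf740, and nearest to Slc5a7 the rows AK032382 and AB347309. None is given for Slc6a5, whose counting interval, -0.45 to 3.36, holds 0. Each likeness rests on 1 difference between 2 libraries.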
